A study of Canis lupus familiaris with 22 samples.

Results

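The p53 network was described through 9 genes: the p53 inhibitors MDM2 and MDM4 and the p53 targets CDKN1A, BTG2, CCNG1, GADD45A, SESN1, SESN2 and ZMAT3. Probe sets were taken where the platform annotation names 1 of these genes as the only symbol. This gave 18 probe sets for 8 of the 9 genes, out of 42924 probe sets and 15115 genes analysed. No probe set names GADD45A alone, so it was not analysed here. MDM2, CDKN1A and CCNG1 had 3 probe sets each, SESN1 had 5, and MDM4, SESN2, BTG2 and ZMAT3 had 1 each, so the last 4 genes rest on a single measurement per sample.

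The samples were 18 invasive urothelial carcinomas (iUC) of pet dogs and 4 normal bladders from healthy, age matched dogs without tumors, with 1 Affymetrix Canine 2.0 array per sample. The tumors were high grade, arose naturally and were biopsied by cystoscopy before therapy, and the labels give no genotype, breed or agent that separates the groups. Each value is a log2 value centred on the median of its probe set over all 22 arrays, so it tells where a sample stands relative to the others and carries no expression level. Probe sets of 1 gene were averaged.

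The p53 protein is a transcription factor that is stabilized by DNA damage and other stress. MDM2 marks p53 for degradation and is itself switched on by p53, which closes a feedback loop, while the related MDM4 binds p53 and blocks its activity. The targets listed here halt the cell cycle, limit growth and oxidative stress or shape RNA processing, and through p21 and the DREAM repressor complex p53 also lowers many genes needed for cell division.

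Several facts of the arrays touch every result. Of 12 smooth muscle markers 10 were lower in iUC, with a mean over the markers of 3.03 to 4.72 in the normal samples and -0.689 to 1.5 in the iUC samples. Of 10 fibroblast markers 8 were lower and 1 higher, and 8 of 13 urothelial markers were higher and 0 lower. The labelled tissues therefore differed in their smooth muscle and urothelial content as read by these markers, and in bulk RNA fewer cells of a type and less RNA per cell cannot be told apart. A Ward tree over all probe sets parted the iUC samples into branches of 11 and 7 samples, which were the same when the 18 probe sets of the p53 genes were left out. The mean of 17 Tag probe sets, a class of Affymetrix controls, ran from 0.277 to 0.46 among the 7 samples and from -0.128 to 0.131 among the 11. Normal bladder replicate 1 carries the same label ending as the iUC samples, whereas the other 3 normal samples carry another, and the labels do not say what the ending means.

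In the comparison of iUC with normal bladder, 1 of the 8 measured genes passed the test, SESN1, which was lower. A gene is called here when limma gives an adjusted p of 0.05 or below (Benjamini-Hochberg over 15115 genes) and the change is 2-fold or more. By this rule 12.3% of all genes were called, 3.68% higher and 8.64% lower, so a count of 1 in 8 is close to the background. At any fold, 4 of the 8 genes had an adjusted p of 0.05 or below, SESN1 and, in the opposite direction, MDM4, SESN2 and ZMAT3, against 35.7% of all genes. The adjusted p of SESN2 did not hold in several alternatives, given with that gene. For MDM4 and ZMAT3 all 18 tumors exceeded all 4 normal samples, a pattern shown by 3.22% of all genes.

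**Figure D1:**
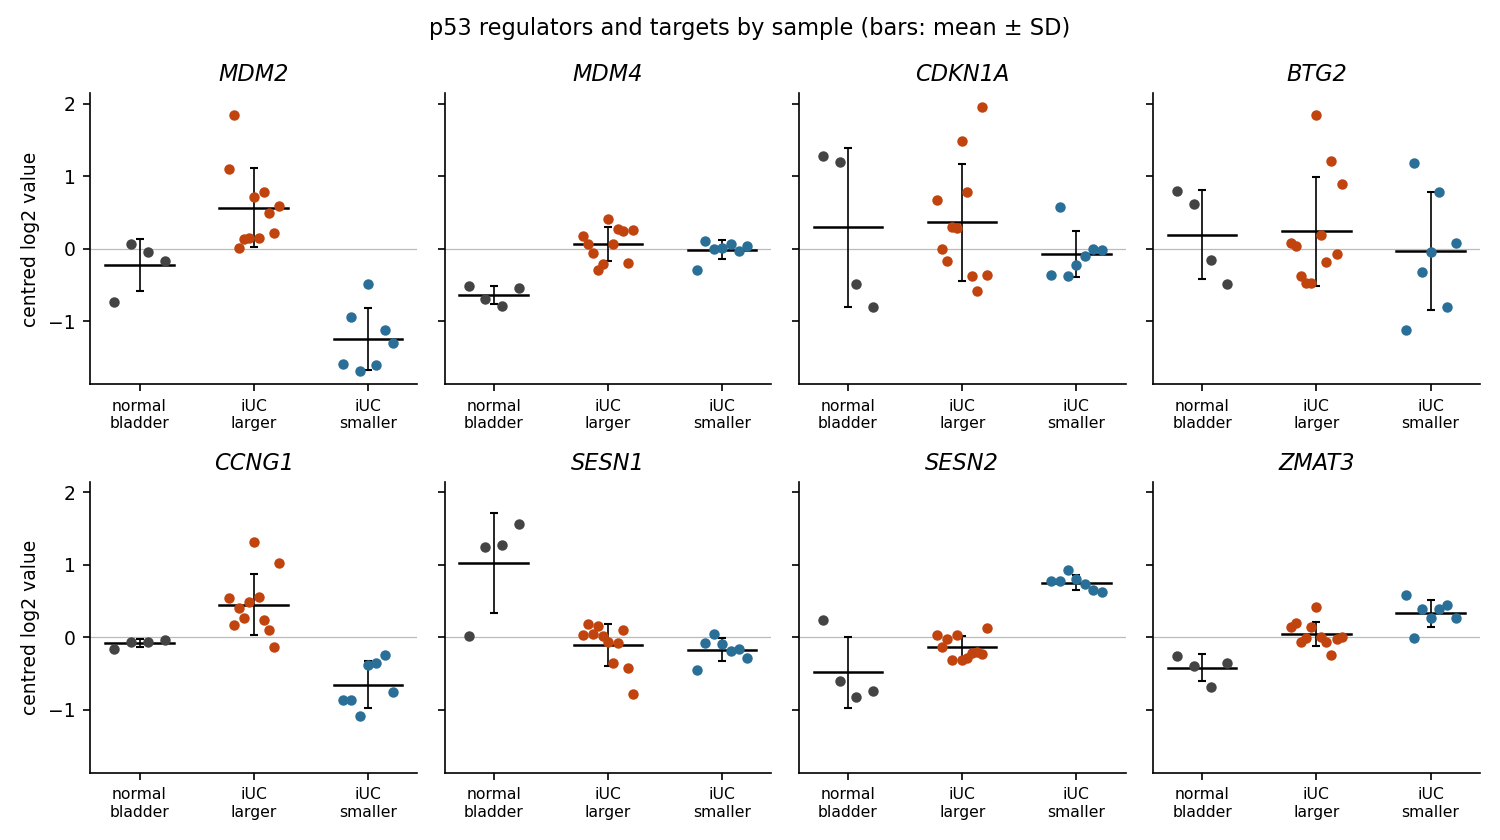
Centred log2 value (vertical axis) of the 8 measured genes in the 4 normal bladder samples and in the larger (n = 11) and smaller (n = 7) branch of iUC samples, 1 point per sample, with the mean and SD of each group. MDM4 and ZMAT3 lie above all normal samples in every iUC sample, 3 of 4 normal samples lie above every iUC sample for SESN1, and MDM2 and CCNG1 are low and SESN2 is high in the smaller branch.

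MDM2, the ubiquitin ligase that marks p53 for degradation, spanned a wide range among the tumors and did not pass the test against normal bladder. In the iUC samples its value ran from -1.69 to 1.85 with a median of 0.15. Normal bladder replicates 1 to 4 had -0.74, 0.06, -0.05 and -0.17. The groups overlapped, with 10 iUC samples above the highest normal sample and 6 below the lowest. The log2 fold change was 0.08 (SE 0.51, 95% interval -0.98 to 1.14, limma adjusted p = 0.909), an interval that holds a 2-fold increase and ends just short of a 2-fold decrease. The SD of MDM2 over the iUC samples was 1.03, higher than that of 97.3% of all genes, whose median SD was 0.34. The 3 MDM2 probe sets gave log2 fold changes of 0.13, 0.11 and 0.00.

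The branches of iUC samples differed widely in MDM2. The 11 samples of the larger branch had 0.01 to 1.85 and the 7 of the smaller branch -1.69 to -0.49, so the ranges did not overlap. Such a gap was not particular to MDM2. CCNG1 and SESN2 had it, as did listed genes such as ATR (-0.34 to 0.67 against -2.12 to -0.87) and E2F3 (-0.43 to 0.27 against 1.43 to 1.95). The ranges of MDM4, CDKN1A, SESN1, BTG2 and ZMAT3 overlapped. The tree used all probe sets, and the share of all genes with such a gap was not counted. Since the branches were found from these same arrays, no test was made between them. Against the 4 normal samples the log2 fold change was 0.79 for the larger branch (SE 0.28, adjusted p = 0.0385, under 2-fold) and -1.03 for the smaller branch (SE 0.24, adjusted p = 0.00267, called lower), where 17.4% of all genes were called lower. The Tag control signal moved with the branches, and its part in these values was not tested.

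MDM4, the MDM2 relative that holds p53 inactive without degrading it, was higher in iUC by 0.67 on the log2 scale (SE 0.11, 95% interval 0.45 to 0.90, adjusted p = 8.17e-05), a change of 1.6-fold. The 18 iUC samples had -0.29 to 0.41 with a median of 0.05. The normal samples had -0.52, -0.70, -0.79 and -0.55. The groups did not overlap, and the lowest tumor stood 0.225 above the highest normal sample. The log2 fold change against normal bladder was 0.71 (SE 0.12) for the larger branch and 0.63 (SE 0.09) for the smaller. With the label ending as a block, which sets the iUC samples against normal bladder replicate 1 alone, it was 0.55 (SE 0.20, adjusted p = 0.231).

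CDKN1A encodes p21, the kinase inhibitor through which p53 stops the cell cycle, and it did not pass the test. The iUC samples ran from -0.59 to 1.96 with a median of -0.01. The normal samples had 1.28, 1.19, -0.49 and -0.81. The normal samples thus fell into a high and a low pair, and 16 of 18 tumors lay between the lowest and the highest of them. The log2 fold change was -0.10 (SE 0.40, 95% interval -0.94 to 0.73, adjusted p = 0.853). The 3 probe sets differed in sign, with -0.48, 0.59 and -0.42, and 0 of them was called. The direction of the gene value turned with array weights, to 0.52 (adjusted p = 0.162), and with 75th percentile scaling, to 0.02 (adjusted p = 0.978).

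BTG2, an antiproliferative cofactor of mRNA deadenylation, had -1.12 to 1.84 in the iUC samples with a median of 0.00. Normal bladder gave 0.80, 0.62, -0.15 and -0.49, in the same order as for CDKN1A. The groups overlapped and the log2 fold change was -0.06 (SE 0.40, 95% interval -0.88 to 0.76, adjusted p = 0.916). CCNG1, cyclin G1, a target that feeds back on p53 through MDM2, had -1.09 to 1.32 in the iUC samples with a median of 0.14, while the normal samples lay close together at -0.16, -0.07, -0.06 and -0.04. Its 10 tumors above and 7 below all normal samples left a log2 fold change of 0.10 (SE 0.33, 95% interval -0.58 to 0.78, adjusted p = 0.815). As with MDM2, the branches did not overlap, with -0.13 to 1.32 against -1.09 to -0.25, and the fold changes against normal bladder were 0.53 (adjusted p = 0.0503) and -0.57 (adjusted p = 0.00778).

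SESN1, a sestrin that restrains mTORC1 and supports peroxide defence, fell by 1.16 on the log2 scale in iUC (SE 0.19, 95% interval -1.55 to -0.76, adjusted p = 0.000101), or 2.23-fold. The iUC samples had -0.78 to 0.18 with a median of -0.08. In normal bladder it was 0.01, 1.25, 1.27 and 1.56. Normal bladder replicates 2, 3 and 4 lay above every tumor, whereas replicate 1 lay among the tumors, with 7 of 18 iUC samples at or above it.

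The fall rested on 2 of the 5 SESN1 probe sets. Probe set Cfa.3090.1.S1_at had -1.17 to 0.68 in iUC and 0.61, 3.08, 3.18 and 3.36 in the normal samples, a log2 fold change of -2.70 (SE 0.38, adjusted p = 1.85e-05). Probe set CfaAffx.6623.1.S1_s_at had -1.39 to 0.91 in iUC and 0.35, 2.38, 2.29 and 2.67 in the normal samples, a log2 fold change of -2.37 (SE 0.41, adjusted p = 0.000166). These were the only 2 of the 18 probe sets of the p53 genes to be called, both lower, beside 10.7% of all probe sets. The other 3 SESN1 probe sets had -0.62, -0.16 and 0.07. Probe set CfaAffx.6623.1.S1_at ran the other way between the branches, at -1.63 to 0.14 in the larger and 0.26 to 0.84 in the smaller, where CfaAffx.6623.1.S1_s_at had -1.10 to 0.91 and -1.39 to -0.83.

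**Figure D2:**
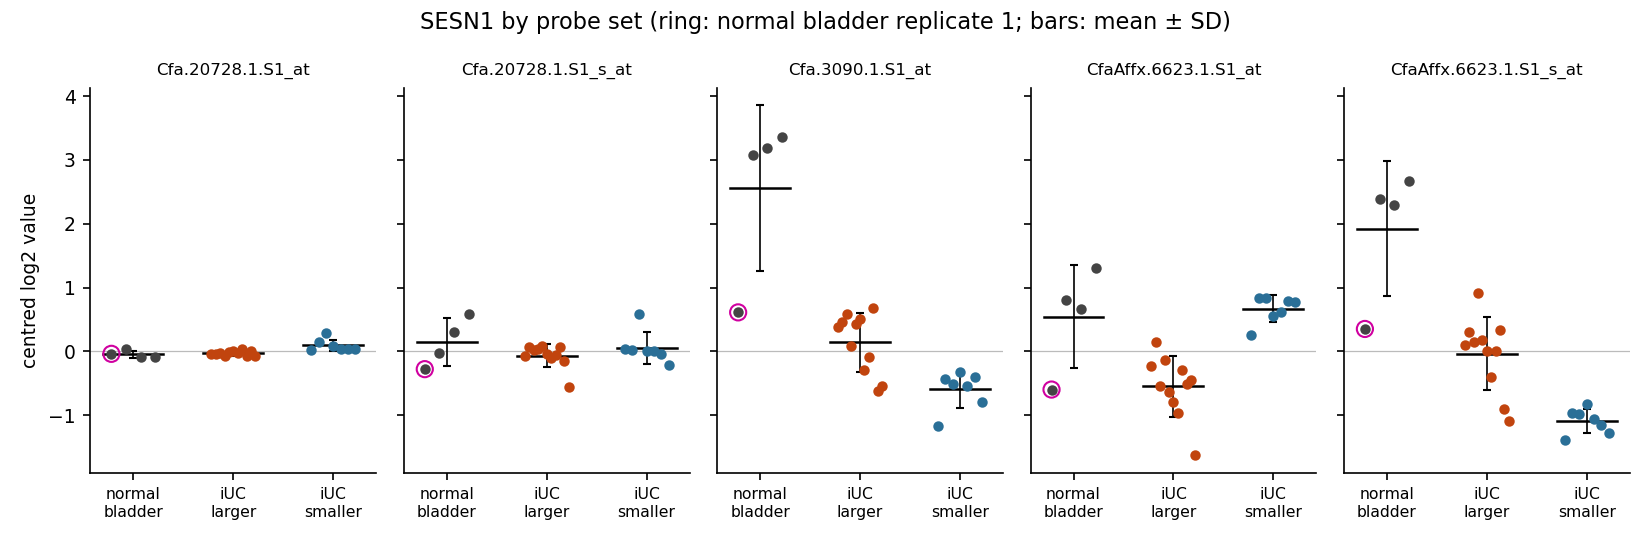
Centred log2 value (vertical axis) of the 5 SESN1 probe sets in the normal bladder samples and in both branches of iUC samples, 1 point per sample, with the mean and SD of each group. In Cfa.3090.1.S1_at and CfaAffx.6623.1.S1_s_at normal bladder replicates 2, 3 and 4 stand at 2.29 to 3.36 and the ringed replicate 1 at 0.61 and 0.35, while Cfa.20728.1.S1_at stays between -0.10 and 0.28 in all samples.

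The call of SESN1 was lost with quantile normalization (-0.76, adjusted p = 0.0162, under 2-fold), with the median of its probe sets (-0.74), without normal bladder replicate 4 (-0.98) and in the fit that blocks on label ending (-0.14, SE 0.25, adjusted p = 0.871). The smooth muscle marker mean of normal bladder replicate 1 was 4.11, within the range of the other normal samples, and its urothelial marker mean was -0.675, between -0.316 in replicate 2 and -3.56 in replicate 4. Its immune marker mean was 1.095, above the 0.049, 0.203 and -0.034 of replicates 2, 3 and 4. The part of the other tissue or of the label ending in the SESN1 difference was not tested.

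SESN2, a second sestrin, which is also induced by amino acid and endoplasmic reticulum stress, was higher in iUC by 0.69 on the log2 scale (SE 0.25, 95% interval 0.17 to 1.21, adjusted p = 0.0387), under the 2-fold bound. The iUC samples had -0.32 to 0.93 with a median of 0.03. The normal samples had 0.24, -0.60, -0.83 and -0.75, so that all tumors lay above normal bladder replicates 2, 3 and 4 but only 7 lay above replicate 1. Those 7 were the samples of the smaller branch, with 0.63 to 0.93, against -0.32 to 0.12 in the larger. The log2 fold change was 1.24 for the smaller branch (SE 0.18, adjusted p = 0.000109, called higher, as were 7.16% of all genes there) and 0.34 for the larger (SE 0.15, adjusted p = 0.0941). It was -0.04 with the label ending as a block.

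ZMAT3, an RNA-binding protein that regulates splicing, was higher by 0.58 on the log2 scale (SE 0.12, 95% interval 0.32 to 0.83, adjusted p = 0.00127), or 1.49-fold. The iUC samples had -0.25 to 0.58 with a median of 0.14. Normal bladder had -0.26, -0.40, -0.69 and -0.35. The groups did not overlap, but the lowest tumor and the highest normal sample differed by only 0.003. The branches had 0.46 (SE 0.10) and 0.75 (SE 0.12) against normal bladder, and the label ending as a block gave 0.41 (adjusted p = 0.636).

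The p53 family and its upstream regulators showed few called changes. Of 21 measured genes, MDM2 and MDM4 included, 0 were called higher and 1 lower, below the 12.3% of all genes, with a median log2 fold change of 0.03 against 0.08 over all genes. The called gene was RCHY1, also known as PIRH2, a p53-induced ubiquitin ligase that acts on p53, at -1.12 (SE 0.34, adjusted p = 0.0139), with the lowest value of the list. The highest was PPM1D, the phosphatase that switches off the p53 response, at 0.97 (SE 0.19, adjusted p = 0.000704, under 2-fold), and it did not overlap between the groups. RCHY1 and PPM1D were the extremes of a list in which the damage kinases ATM, ATR, CHEK1 and CHEK2 had 0.11 (adjusted p = 0.257), -0.77 (adjusted p = 0.172), 0.55 (adjusted p = 0.04) and -0.26 (adjusted p = 0.194) and the p53 relatives TP63 and TP73 had 0.47 (adjusted p = 0.00777) and 0.14 (adjusted p = 0.271).

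Genes listed here as other p53 targets moved in both directions. Whether p53 acts on each of them, CCNG2 and GADD45G included, was not tested. Of 41 measured in 3 lists, 3 were called higher and 5 lower, or 19.5% against 12.3% of all genes, with a median of 0.11. Among 12 arrest and feedback genes, GTSE1 at 1.01 (SE 0.24) and cyclin G2, CCNG2, at 1.15 (SE 0.40) were called higher. GADD45G, a stress sensor and the relative of GADD45A, at -1.86 (SE 0.21, adjusted p = 1.02e-06) and the polo-like kinase PLK2 at -1.17 (SE 0.23) were called lower. GTSE1 is known to dampen p53 and to be made in dividing cells, and PLK2 and GADD45G to restrain growth after stress.

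Among 12 apoptosis genes, only BID, a BH3-only activator of the mitochondrial pathway, was called, at -1.24 (SE 0.39, adjusted p = 0.0177), and the median was -0.20. BAX, the pore-forming death effector, had -0.46 (adjusted p = 0.305), the death receptor FAS -0.12 (adjusted p = 0.712) and PERP, a desmosomal protein and death effector, 0.78 (adjusted p = 0.0632). Among 17 repair and metabolism genes, PRKAB1, a subunit of the energy sensor AMPK, was called higher at 1.16 (SE 0.22), and the hydrolase CMBL at -1.37 (SE 0.40) and the KIT ligand KITLG at -1.51 (SE 0.22) were called lower. The nucleotide excision repair genes DDB2 and XPC had 0.01 and 0.11, with adjusted p = 0.933 and 0.421. The normal bladder samples carried much more smooth muscle signal, and its part in the lower calls was not tested.

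The cell cycle genes that p53 lowers through DREAM were higher in iUC. Of 16 measured, 12 were called higher and 0 lower, or 75% against 3.68% of all genes, and the median was 1.35 against 0.08 over all genes. The largest values belonged to the DNA topoisomerase TOP2A at 2.84 (SE 0.54), the mitotic activator CDC20 at 2.30 (SE 0.56), the ribonucleotide reductase subunit RRM2 at 2.07 (SE 0.43), the kinase CDK1 at 1.95 (SE 0.54), the mitotic kinase PLK1 at 1.71 (SE 0.31) and cyclin B2, CCNB2, at 1.68 (SE 0.42). Each of these 6 had a limma adjusted p of 0.00917 or below. The lowest value in the list was 0.57, for the spindle protein PRC1. The mean over the list was -1.26 to -1.01 in the normal samples and -0.582 to 1.08 in the iUC samples, without overlap. With the label ending as a block, only normal bladder replicate 1 stands against the tumors. In that fit TOP2A had a value of 2.74 (SE 1.04), CDC20 2.30 (SE 1.06), CDK1 2.15 (SE 1.03), CCNB2 1.63 (SE 0.79) and PLK1 1.42 (SE 0.59). RRM2 stood at -1.096 in normal bladder replicate 1, within the -1.493 to 1.376 of the tumors. In replicates 2, 3 and 4 it stood below them, at -2.340, -2.180 and -1.949. The part of the label ending in the cell cycle values was not tested.

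The study's own list of P53 and RB genes was chosen by its authors on these samples and is not independent evidence of a direction. Of its 16 measured genes, 4 were called higher and 2 lower, or 25% and 12.5% against 3.68% and 8.64% of all genes. The cell cycle transcription factors E2F1 at 1.02 (SE 0.24) and E2F3 at 1.18 (SE 0.45), cyclin E2, CCNE2, at 1.35 (SE 0.38) and the pyruvate dehydrogenase kinase PDK2 at 1.40 (SE 0.26) were higher. Cyclin D1, CCND1, at -1.61 (SE 0.51) and the kinase PDK3 at -1.84 (SE 0.29) were lower.

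**Figure D3:**
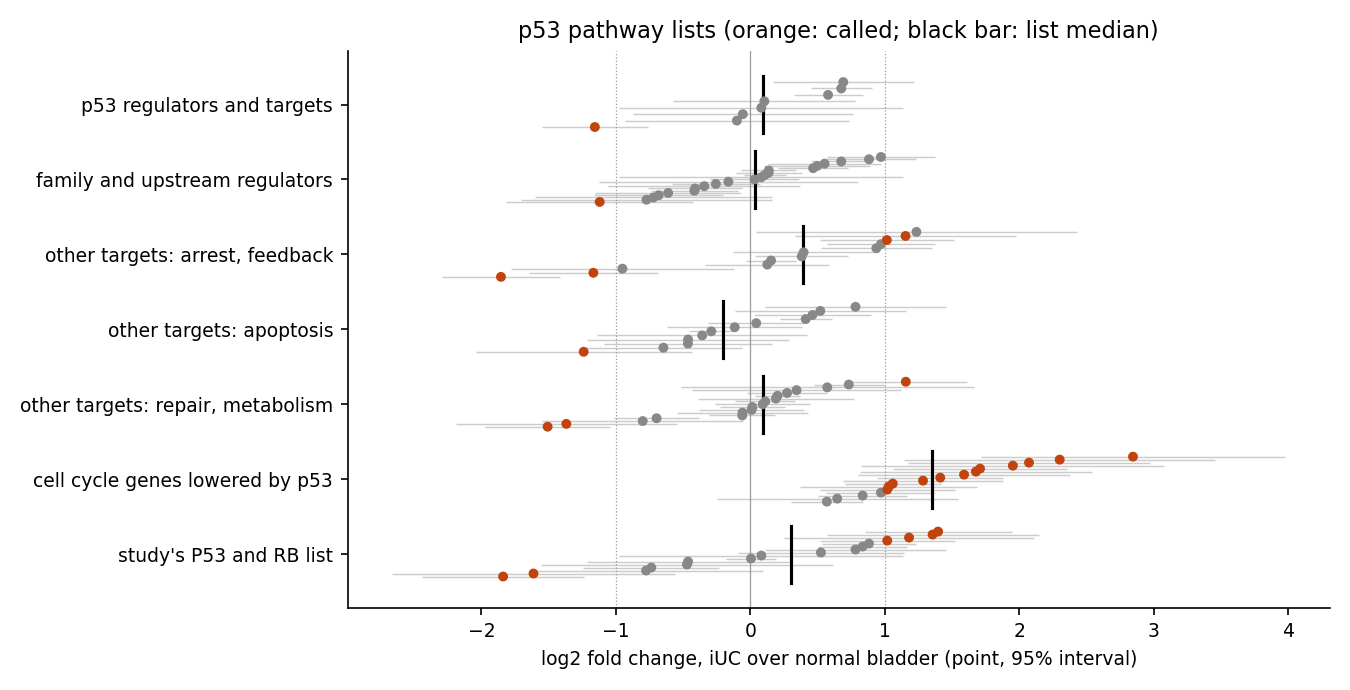
Log2 fold change of iUC over normal bladder (horizontal axis) with its 95% interval for every measured gene of 7 lists, 1 point per gene, in orange where called, with the list median as a black bar and dotted lines at a 2-fold change. The points of the cell cycle genes lowered by p53 all lie above 0 with a median of 1.35, though the interval of AURKB reaches -0.25, whereas the other lists lie on both sides of 0 with medians between -0.20 and 0.39.

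Whether targets of p53 vary together from tumor to tumor was examined within each branch, since the branches stand apart and no r was pooled over them. Of 28 pairs of the 8 genes, 18 had a Pearson r above 0 in the larger branch and 17 in the smaller. Of all pairs of genes on the array, 52% and 52.1% did. The median r was 0.102 and 0.0821, beside 0.0204 and 0.0284 over all pairs of genes on the array. After adjustment over the 56 relations, 0 pairs passed by Pearson's r in either branch. At an unadjusted permutation p of 0.05 or below stood 1 pair in the larger and 3 in the smaller branch. MDM4 and BTG2, with a positive r, were such a pair in both branches. The other pairs, both of the smaller branch, had a negative r. They were CDKN1A with ZMAT3 at -0.826 (exact permutation p = 0.0349) and BTG2 with ZMAT3 at -0.823 (exact permutation p = 0.0183).

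MDM2 and CDKN1A, both classical targets, had an r of -0.144 in the larger branch (Spearman rho -0.109, permutation p = 0.672, adjusted p = 0.931) and 0.406 in the smaller (rho 0.571, exact permutation p = 0.37, adjusted p = 0.905). CDKN1A and BTG2 had 0.104 (permutation p = 0.767) and 0.699 (exact permutation p = 0.0704). MDM2 and CCNG1 had 0.0298 (permutation p = 0.93) and 0.432 (exact permutation p = 0.328). With 11 and 7 samples only a strong relation could pass, so these values do not show that the targets varied independently.

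The strongest pair in both branches was MDM4 and BTG2. In the larger branch r was 0.783 (rho 0.764, two-sided permutation p = 0.00369, adjusted p = 0.103), and 0.663 without the 2 samples farthest from the median of MDM4. In the smaller branch r was 0.837 (exact permutation p = 0.00337, adjusted p = 0.103), and 0.975 without such samples. The order of the 7 samples by MDM4 and by BTG2 was the same there, for a rho of 1 (exact permutation p = 0.000397, adjusted p = 0.0222), the only one of the 56 relations to pass by rank. The values of BTG2 spanned -1.12 to 1.84 and those of MDM4 only -0.29 to 0.41 over the 18 tumors.

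**Figure D4:**
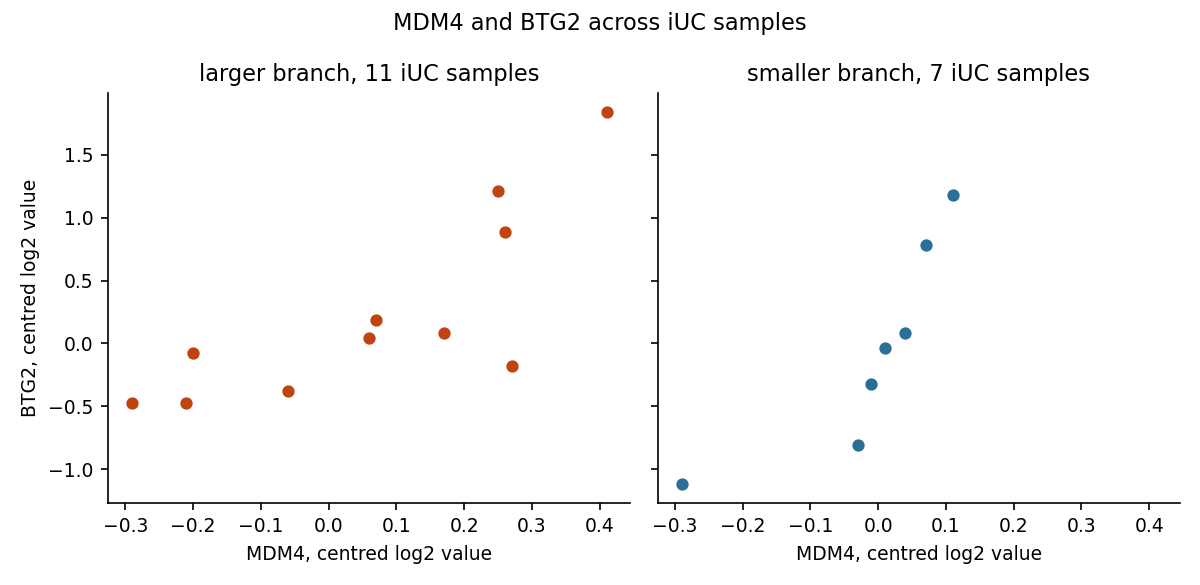
BTG2 (vertical axis) against MDM4 (horizontal axis), both as centred log2 values, in the 11 iUC samples of the larger branch and the 7 of the smaller branch, 1 point per sample. BTG2 is high where MDM4 is high in both branches, with r of 0.783 and 0.837.

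MDM4 and BTG2 lie on the same dog chromosome with 12 measured genes between them in the RefSeq gene order of assembly UU_Cfam_GSD_1.0, which may differ from the sequence used to design the array. Of those 12 genes, 6 had an r above 0 with both MDM4 and BTG2 in both branches. The share of all genes with such signs was not counted. Since MDM4 and BTG2 went together, the signs with both are not independent. ZC3H11A had the highest r of the 12 with both genes in the larger branch. Its r was 0.81 and 0.53 with MDM4 and 0.82 and 0.59 with BTG2 in the larger and the smaller branch. FMOD and PRELP, which encode matrix proteoglycans and lie in the same stretch, had values below 0 with both genes in both branches.

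The genes most like MDM2, ranked by the lower of their Pearson r in the 11 and the 7 iUC samples, were RAP1B (0.81 and 0.95), SHMT2 (0.78 and 0.90), METTL24 (0.78 and 0.79), CAND1 (0.88 and 0.77) and XPOT (0.77 and 0.78). All but METTL24 are on the chromosome of MDM2, with 2 measured genes between MDM2 and RAP1B and 8 between MDM2 and CAND1. Of the 50 genes most like MDM2, 42% were on its chromosome, which holds 3.44% of the genes placed. The genes most like CDKN1A were CHST15 (0.84 and 0.83), ZNRF3 (0.83 and 0.90), LOC481034 (0.82 and 0.82), MFGE8 (0.82 and 0.87) and INKA1 (0.80 and 0.94), and 0 of these 5 were on the chromosome of CDKN1A. The share of the 50 most alike genes on the same chromosome was 36% for CCNG1, 22% for MDM4, 20% for SESN1, 16% for SESN2, 14% for BTG2, 4% for CDKN1A and 0% for ZMAT3, whose chromosomes hold between 1.08% and 3.8% of the genes placed.

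The likeness of MDM2 to its neighbours rested largely on 1 tumor. Over the 20 nearest measured genes, 10 on each side, the median r with MDM2 was 0.757 in the larger branch, 0.305 without iUC replicate 2 and 0.206 without iUC replicates 1 and 2, which had the highest MDM2 values of all samples. In the smaller branch it was 0.287. Over all genes the median r with MDM2 was 0.027 and -0.173. These neighbours were examined after their values were seen, and the values are a description.

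In iUC replicate 2 MDM2 stood at 1.85, with 1.05, 2.19 and 2.33 in its 3 probe sets. Of its 20 neighbours 13 were at 1 or above in that sample, beside 2.57% of all genes, and 12 had their highest value of all tumors there, beside 2.96% of all genes. They included FRS2, an adaptor of fibroblast growth factor receptors, at 2.97, the nucleoporin NUP107 at 2.77, MDM1 at 2.68, CAND1 at 2.42 and RAB3IP at 2.30. Genes such as IFNG, IL22 and LRRC10 in the same stretch had 0.06, 0.04 and 0.05. No other tumor had more than 4 of the 20 neighbours at 1 or above. iUC replicate 1, at 1.10 for MDM2, had these 4, with RAB3IP at 1.77 and NUP107 at 1.09.

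The high values in iUC replicate 2 ended on one side of MDM2 and went on along the other. Along the chromosome the median was 1.7 over the 10 measured genes before MDM2 and 1.39 over the 10 after it. It was 0.0725 over the next 10 genes after these and -0.0455 over the following 40. Before MDM2 it was 0.888 over the next 10 genes and 0.615 over the 40 farther away, of which 21 had their highest value of all tumors in iUC replicate 2. That stretch holds CDK4, the kinase that inactivates RB, at 2.55, and MARCHF9 at 4.26, against highest values of 0.48 and 0.94 in the other 17 tumors. Among the other p53 genes of this tumor, SESN1 at 0.18 was the highest of the 18 tumors, while SESN2 at -0.13, CCNG1 at 0.17, BTG2 at 0.04, ZMAT3 at 0.20, MDM4 at 0.06 and CDKN1A at 0.00 lay near the middle of the tumors. Without iUC replicate 2 the comparison of MDM2 between iUC and normal bladder gave a log2 fold change of -0.04 (SE 0.46, limma adjusted p = 0.955).

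**Figure D5:**
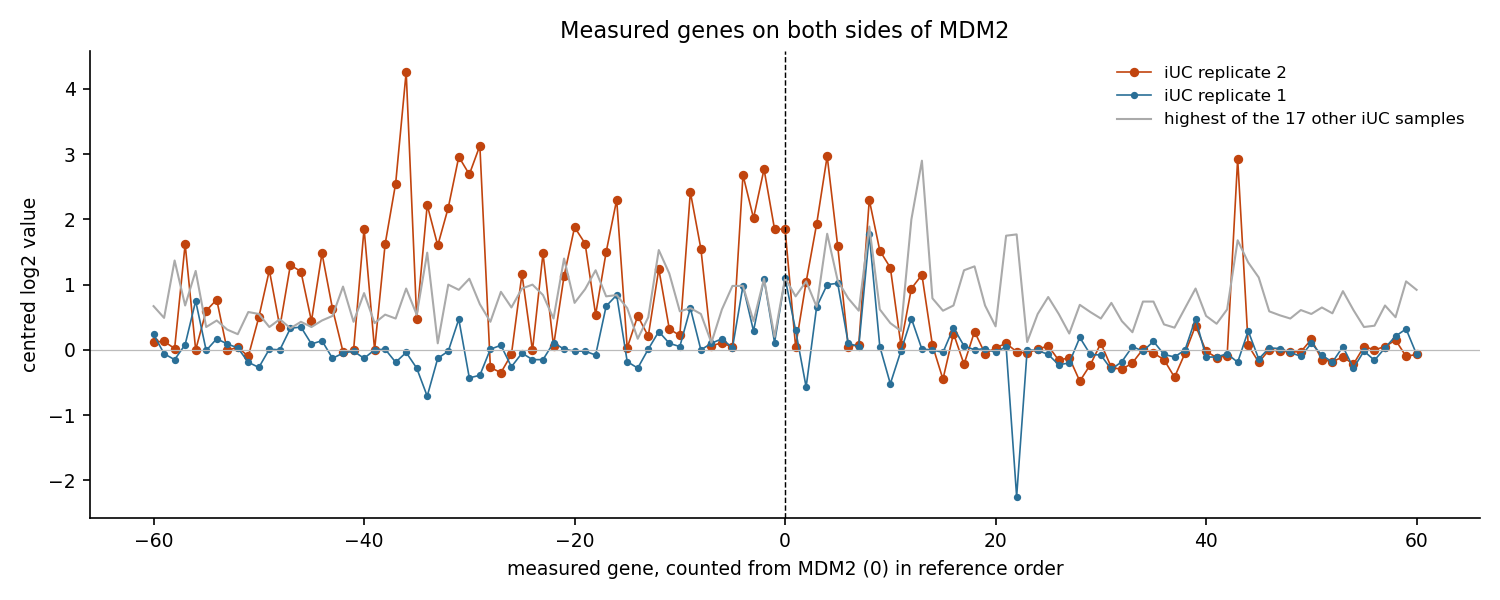
Centred log2 value (vertical axis) of the 60 measured genes on each side of MDM2, placed by their order on the chromosome counted from MDM2 at 0 (horizontal axis), in iUC replicate 2 and iUC replicate 1, with the highest value among all iUC samples but replicate 2 in grey. In iUC replicate 2 values of 1 or above are frequent from the left edge to the 10th gene right of MDM2 and rare beyond it, where 2 of 50 genes reach 1.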

How the data were processed

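Total RNA of 18 canine iUC and 4 normal bladder samples was hybridized to Affymetrix Canine 2.0 arrays. The authors processed the arrays in GeneSpring GX and deposited log2 values, centred on the median of each of 43035 probe sets. Probe summarisation and the scaling of arrays to each other were not given in the sources used here. After 111 Affymetrix control probe sets were set aside, genes were named from 29254 probe sets with 1 symbol and averaged per gene. No filter on low values was possible. Groups came from the labels, and limma 3.58.1 under R 4.3.3 compared them without covariates. The code was tested on simulated data. Correlations used exact permutations for 7 samples and 100000 for 11. The members and lists were chosen with earlier results of these data known. Named were all measured members, the called genes of each list (up to 6 by size of change), the 5 genes most like MDM2 and CDKN1A and pairs past the threshold. Other genes were named after their values were seen. The same-numbered samples did not deviate together (correlations -0.166 to 0.131). Alternatives were other scalings, array weights, the methods' test, other summaries of probe sets, blocks and subsets of samples. The small number of normal arrays limits precision. Over all probe sets normal bladder replicates 3 and 4 correlated at 0.934 and the other pairs of normal samples at 0.426 to 0.761. An alternative took replicates 3 and 4 as 1 sample, and the cause of their likeness was not tested. Tables were handled with Python 3.11.15 and pandas 2.3.3.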

Additional observations from a re-analysis of the deposited data

Results flagged for a closer look

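In 4 of 26 groups of normal bladder values that were looked at, 1 sample lay far from the other 3 by Dixon's gap (critical value 0.829), where chance gives about 1 in 20 for separate groups. Normal bladder replicate 1 was that sample each time. It had 0.61 in SESN1 probe set Cfa.3090.1.S1_at (gap over range 0.899) and 0.35 in SESN1 probe set CfaAffx.6623.1.S1_s_at (0.836), both below the other normal samples. It had -0.43 in CCNG1 probe set Cfa.872.2.S1_at (0.924) and -0.79 in MDM2 probe set CfaAffx.1587.1.S1_at (0.894). The 26 groups were the 8 gene values and the 18 probe sets. MDM4, SESN2, BTG2 and ZMAT3, with 1 probe set each, entered with the same values in both. Probe sets of 1 gene are not independent either, so the groups are not separate trials. Normal bladder replicate 1 is the normal sample that shares its label ending with the tumors.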

How the results depend on the processing

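Of 34 genes named from the p53 set and its lists, under 16 alternatives, 418 of 544 values kept their direction and stayed called or not called. A gene under 2-fold that lost its adjusted p, such as SESN2, counts as kept here. Among the measured p53 genes the count called lower, 1, became 0 with quantile normalization, the median of a gene's probe sets, the label ending as a block and the replicate block, and 2 in the smaller branch only, where 1 was called higher. Of the other p53 targets (3 higher, 5 lower), quantile normalization left 1 and 2, normal bladder replicates 3 and 4 as 1 sample 1 and 2, the label ending as a block 0 and 1, the larger branch 5 and 3 and the smaller branch 0 and 10, while 75th percentile scaling gave 5 higher and array weights 8. The upstream regulators called lower, 1, became 0 with quantile normalization, array weights, replicates 3 and 4 as 1 sample, the label ending as a block and the larger branch, and 8 in the smaller branch, and 1 was called higher with 75th percentile scaling, array weights, either branch or the probe set of largest variance. Of the cell cycle genes lowered by p53 the label ending as a block left 0 of 12. The study's list, with 6 called, had 3 with quantile normalization, 0 with the label ending as a block and 12 in the smaller branch.

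Leaving out 1 normal sample at a time gave 0 to 1 p53 genes lower, 1 to 6 other targets higher and 3 to 5 lower, 0 to 1 regulators lower and 0 to 1 higher, 10 to 13 cell cycle genes higher, and 3 to 7 of the study's list called. Of all genes, these fits called 298 to 716 higher and 967 to 1495 lower. Over these fits MDM2 had -0.09 to 0.18, CDKN1A -0.47 to 0.23 and BTG2 -0.29 to 0.14. Without normal bladder replicate 1, MDM2 turned to -0.09, CDKN1A to 0.23 and BTG2 to 0.14, and without replicate 2 CDKN1A to 0.20 and BTG2 to 0.08. Other values that changed sign were MDM2 in the smaller branch (-1.03) and without iUC replicate 2 (-0.04, chosen after seeing the data), CDKN1A and BTG2 with 75th percentile scaling (0.02 and 0.06), array weights (0.52 and 0.21) and the larger branch (0.07 and 0.05), CCNG1 in the smaller branch (-0.57), and SESN2, PLK2 and PRKAB1 with the label ending as a block (-0.04, 0.00 and -0.05). By Spearman's rho 1 pair of the smaller branch passed instead of 0. The causes were not tested, beyond the fewer samples or genes of an alternative.

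With the replicate number as a block, which does not pair these samples, SESN1 had -1.10 (adjusted p = 0.0989) and CCNG1 -0.18, and 0 p53 genes, 0 other targets in either direction, 0 regulators, 6 cell cycle genes and 2 genes of the study's list were called. Of all genes, the replicate block called 215 higher and 349 lower. The 4 normal arrays, and values without a level, limit what can be said about weakly expressed genes.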
